A study of Mus musculus with 383 samples.

Results

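Mitochondrial ribosomal protein genes were described across 4 brain regions of mice. The members were the probe sets that carried a single gene symbol beginning with Mrpl or Mrps and a number, which gave 156 of 45037 probe sets on the array. They stood for 76 of 18193 named genes. Of these genes, 47 belong to the large subunit and 29, with 52 of the probe sets, to the small subunit. All 76 are named in the plots or covered by the counts below, and 34 of them had 1 probe set while 42 had several, with up to 8.

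The study linked brain gene expression to sleep and affective behaviour in a genetically mixed population. The animals were males from the F2 generation of a cross between C57BL/6J and 129S1/SvImJ, so each mouse carried its own mixture of the alleles of both strains, and no group differed by a treatment. All had gone through behavioural tests from 7 weeks of age, electrode implantation at 10 weeks, and recordings that included 6 h without sleep and 1 h of restraint. They were killed at 16 weeks for tissue. Affymetrix arrays covered cortex (98 mice), hippocampus (83 mice), hypothalamus (94 mice) and thalamus (the remaining mice with that tissue), which made 383 arrays of 117 mice.

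The mitochondrial ribosome translates the few messages that are still encoded by mitochondrial DNA, all of them for membrane subunits of the respiratory chain and ATP synthase. Its proteins are encoded in the nucleus, made on cytosolic ribosomes and imported. Large subunit proteins (Mrpl) surround the site of peptide bond formation and small subunit proteins (Mrps) the site where the message is decoded. Brain tissue depends heavily on respiration, and defects in several of these genes cause mitochondrial disease in humans. Mrps36 is kept here by its symbol, although its product has since been assigned to the alpha-ketoglutarate dehydrogenase complex.

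Of 7 cortex markers 6 were called higher in cortex, and the other, Rorb, stood at 0.06 ± 0.04 and did not pass (limma, adjusted p = 0.171). All 8 thalamus markers were called higher in thalamus. The 7 cortex markers had a mean log2 level between 9.64 and 10.4 on the cortex arrays and between 6.84 and 9.16 on the thalamus arrays. The 8 thalamus markers lay between 9.55 and 10.6 on the thalamus arrays and between 5.82 and 7.26 on the cortex arrays. The cortex arrays also carried 7 striatum markers at 9.62 to 11.7, against 7.65 to 8.20 in thalamus. RNA integrity numbers (RIN) had a median of 7.7 in cortex and 7.9 in thalamus, against 8.9 and 9.2 in hippocampus and hypothalamus. Levels in hippocampus and hypothalamus were not on the usual log2 scale, with 769 and 335 probe sets whose mean lay outside 0 to 16, against 0 in both other regions. Levels were therefore compared between cortex and thalamus alone. Judged by the values, cortex and thalamus had also been normalised apart. An offset between their scales cannot be told apart from a difference of region. In bulk tissue, fewer cells of a type and less RNA per cell cannot be told apart.

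The promoters of some of the genes named in the results below are shown first, as examples. Other leading genes, among them Mrpl34, Mrps10, Mrpl55 and Mrpl41, are not shown. Each runs from 250 bases before the annotated start to 50 after it, 5′ to 3′ on the gene's strand, from RefSeq on GRCm38.p6. Mrpl11, at chr19:4962056-4962355 on the plus strand, was among the members with the highest median r in 3 regions, though not in thalamus. Mrpl18, at chr17:12916042-12916341 on the minus strand, and Mrps24, at chr11:5707652-5707951 on the minus strand, were among the genes lower in cortex. Mrpl33, at chr5:31613701-31614000 on the plus strand, was the gene called higher in cortex. Mrpl9, at chr3:94443086-94443385 on the plus strand, varied together in all regions of a mouse. Capitals mark matches, on either strand, to 3 motifs of 8 letters that are known for promoters of mitochondrial and housekeeping genes: GCGCATGC (NRF1), CCGGAAGT (ETS factors) and AAGATGGC (YY1).
Mrpl11: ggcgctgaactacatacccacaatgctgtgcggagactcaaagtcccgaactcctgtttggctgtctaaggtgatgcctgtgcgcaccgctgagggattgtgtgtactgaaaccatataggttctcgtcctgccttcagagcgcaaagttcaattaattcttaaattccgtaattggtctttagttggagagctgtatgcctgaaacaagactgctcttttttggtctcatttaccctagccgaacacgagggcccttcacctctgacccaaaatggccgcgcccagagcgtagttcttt
Mrpl18: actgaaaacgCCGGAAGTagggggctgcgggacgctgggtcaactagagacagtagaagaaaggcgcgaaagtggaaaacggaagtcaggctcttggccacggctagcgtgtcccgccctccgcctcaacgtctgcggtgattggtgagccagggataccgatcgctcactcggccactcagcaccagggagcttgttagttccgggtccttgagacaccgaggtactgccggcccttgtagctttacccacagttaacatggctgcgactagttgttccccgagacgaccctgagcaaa
Mrps24: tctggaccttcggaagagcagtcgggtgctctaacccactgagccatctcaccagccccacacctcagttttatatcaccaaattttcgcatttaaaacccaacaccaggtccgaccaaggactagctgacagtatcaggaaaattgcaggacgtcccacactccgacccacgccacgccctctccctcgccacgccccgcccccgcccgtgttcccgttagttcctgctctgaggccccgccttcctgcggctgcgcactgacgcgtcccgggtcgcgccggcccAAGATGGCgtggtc
Mrpl33: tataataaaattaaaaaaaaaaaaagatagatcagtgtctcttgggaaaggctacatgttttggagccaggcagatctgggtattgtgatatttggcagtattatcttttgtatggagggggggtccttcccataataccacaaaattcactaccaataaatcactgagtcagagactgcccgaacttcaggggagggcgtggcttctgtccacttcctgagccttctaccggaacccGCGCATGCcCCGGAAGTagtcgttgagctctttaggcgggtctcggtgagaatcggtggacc
Mrpl9: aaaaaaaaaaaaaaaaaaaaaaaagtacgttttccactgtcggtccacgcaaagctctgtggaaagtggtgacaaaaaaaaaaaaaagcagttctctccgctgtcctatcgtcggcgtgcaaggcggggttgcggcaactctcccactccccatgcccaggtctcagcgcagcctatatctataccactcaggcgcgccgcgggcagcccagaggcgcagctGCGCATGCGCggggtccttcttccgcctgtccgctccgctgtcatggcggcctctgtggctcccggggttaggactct

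The table of promoters matched 67 of the 76 genes, with 73 promoters. The NRF1 letters were in 8 of these 73 promoters (11.0%) and in 2.71% of all 32851 promoters. The ETS letters were in 12 (16.4%), against 3.89% of all, and the YY1 letters also in 12 (16.4%), against 2.75% of all. Mrpl33 held both the NRF1 and the ETS letters, side by side at its start. In Mrps24 the YY1 letters lay 36 bases after the start, and in Mrpl9 2 overlapping NRF1 matches, 1 per strand, began 28 bases before it. The Mrpl11 window held none of the 3. A match is a description of letters and not a bound site.

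Cortex and thalamus were compared to describe how the members differ between regions. With 1 probe set per gene, 17 of 76 genes were lower in cortex and 1, Mrpl33, was higher, at an adjusted p under 0.05 with a log2 difference of at least 0.5 (limma, Benjamini-Hochberg over all 45037 probe sets). The members called lower were 22.4% of the 76, near the 20.3% of named genes called lower. The 1 called higher was 1.32%, below the 6.07% of named genes called higher. With dim probe sets left out (mean level under 5.35), 17 of 76 members and 3323 of 13790 named genes were called lower. In that setting 1 member and 997 named genes were called higher. After a joint quantile normalization, 4 members stayed called lower (Mrpl34, Mrps10, Mrps24 and Mrpl18), which was 5.26% against 12.2% of named genes, and after centring on the array median 4 were again called lower, against 12% of named genes. With a minimum difference of 1 no member was called by limma, where 4.31% of named genes were called lower and 2.34% higher. No difference between these shares was tested.

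The median difference, cortex minus thalamus, was -0.33 over the 76 genes and -0.20 over all named genes on the log2 scale. Of the 76, 60 lay below the median of all named genes. A new scaling moved the median of all named genes from -0.20 to -0.06 with quantile normalization and to -0.04 with centring on the array median. Relative to that moving median the members stood at -0.14 as deposited, -0.12 after quantile normalization and -0.14 after centring. All named genes include dim ones, whereas no member gene was read by a dim probe set. With dim probe sets left out, the median of named genes was -0.24 and that of the members stayed at -0.33. The members thus stood nearer to that background, and their distance from the median depended in part on dim genes. Of the 76 genes, 71 had a difference below 0 as deposited and 63 under each of the other scalings, so the sign of a few depended on the scaling. Differences below 0 also made up 73.1% of all named genes as deposited, 57.4% after quantile normalization and 54.8% after centring. With no minimum difference 71 members were called lower, where 66.6% of named genes were, and 4 higher, where 22% were. The median was -0.36 for the large subunit, where 11 of 47 genes were called lower and 1 higher, and -0.32 for the small subunit, where 6 of 29 were called lower and 0 higher.

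**Figure D1:**
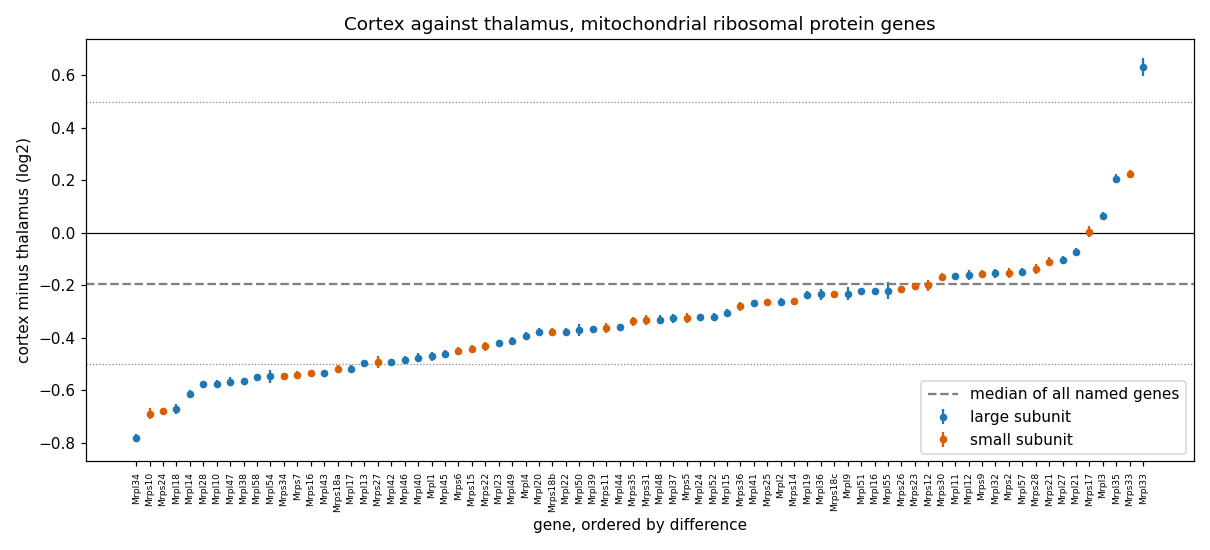
Difference in log2 level, cortex minus thalamus, for the 76 genes in order, with the SE of the fit as a bar. Colour gives the subunit, the dashed line the median of all named genes (-0.20) and the dotted lines the minimum difference of 0.5. Most genes lie below the dashed line and Mrpl33 stands alone at the right.

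Among large subunit genes, Mrpl34, the mitochondrial counterpart of bacterial L34, had the largest negative difference. Its level ran from 8.55 to 9.08 in cortex, with a median of 8.82, and from 9.31 to 9.82 in thalamus, with a median of 9.58. The ranges did not overlap, and cortex was lower in 91 of 91 mice with both regions. The difference was -0.78 ± 0.01 (SE of the limma fit, adjusted p = 1.79e-122). Mrpl18, the counterpart of bacterial L18, ran from 8.46 to 9.49 in cortex (median 8.90) and from 9.12 to 9.88 in thalamus (median 9.58). Here the ranges overlapped, though cortex was lower in 91 of 91 mice, and the difference was -0.67 ± 0.02. Mrpl14, at -0.61 ± 0.01, Mrpl28, at -0.58 ± 0.01, Mrpl10, at -0.57 ± 0.01, and Mrpl47, at -0.57 ± 0.02, followed. Under quantile normalization these 4 kept their direction at -0.44, -0.43, -0.42 and -0.40, short of the minimum difference.

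Among small subunit genes, Mrps10, the counterpart of bacterial S10, ran from 8.94 to 9.60 in cortex (median 9.34) and from 9.65 to 10.3 in thalamus (median 10.0). Its ranges did not overlap and its difference was -0.69 ± 0.02 (limma, adjusted p = 1.37e-87). Mrps24 ran from 9.03 to 9.44 in cortex (median 9.25) and from 9.69 to 10.2 in thalamus (median 9.93). The ranges again did not overlap, at -0.68 ± 0.01, and cortex was lower in 91 of 91 mice for both genes. Of the 17 genes called lower, 12 had ranges that did not overlap and 16 were lower in every mouse with both values. Of the 3702 named genes called lower, 42.7% had ranges that did not overlap and 71.1% were lower in every such mouse, and the difference between members and named genes was not tested.

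Mrpl33, a small protein of the large subunit, went the other way. Its level ran from 8.35 to 9.35 in cortex (median 8.92) and from 7.32 to 8.93 in thalamus (median 8.29). The ranges overlapped, but cortex was higher in 91 of 91 mice, and the difference was 0.63 ± 0.03 (limma, adjusted p = 1.68e-45), or 0.80 after quantile normalization. This call rests on 1 of 2 probe sets of the gene: the other stood at -0.09 ± 0.04 and was not called (limma, adjusted p = 0.0519). Mrps33 at 0.22 ± 0.02 and Mrpl35 at 0.21 ± 0.02 also lay above 0 but under the minimum difference.

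**Figure D2:**
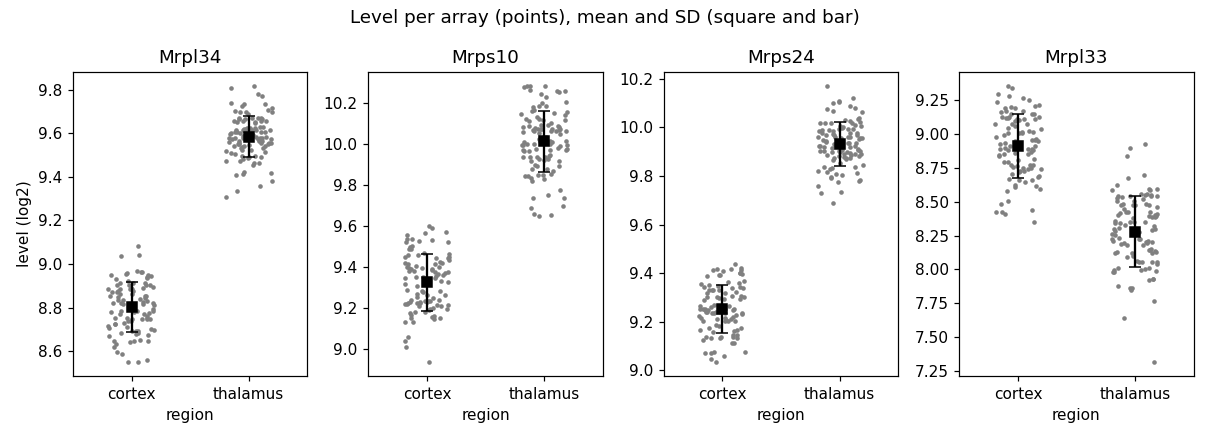
Log2 level per array (points) in cortex and thalamus for Mrpl34, Mrps10, Mrps24 and Mrpl33, with the mean (square) and SD (bar). The y axes do not start at 0. The first 3 genes are lower in cortex without overlap, and Mrpl33 is higher in cortex with overlap.

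Probe sets of 1 gene did not always go together. Over all 156 probe sets, 26 were called lower in cortex, where 16.3% of all probe sets were, and 4 higher, where 6.88% were. No gene had probe sets called in opposite directions with the minimum difference. Without it, 11 of the 42 genes with several probe sets had adjusted p-values under 0.05 in both directions. For Mrpl13, probe set 1435966_x_at stood at 0.91 ± 0.06 and 1424204_at at -0.50 ± 0.01. For Mrpl35, 1440989_at stood at -0.58 ± 0.02 and 1419363_a_at at 0.21 ± 0.02. For Mrpl3, 1422463_a_at stood at 0.74 ± 0.02 while the other 3 lay between -0.05 and 0.07. Of the 17 genes called lower, 9 had several probe sets, and for 1 of these, Mrpl54, another probe set was also called lower. The 13 other probe sets of the 9 genes ran from -0.54 to 0.20. The value of these genes thus depended on the probe set read.

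Other lists of mitochondrial gene expression had medians below 0 under each scaling, that of the transcription genes above the median of all named genes and those of the others below it. Of 21 assembly factors, 7 were called lower in cortex and 0 higher, with a median difference of -0.41, led by Ngrn at -0.75 ± 0.02 and Nsun4, an rRNA methyltransferase, at -0.64 ± 0.02. Of 11 translation factors, 3 were lower and 0 higher (median -0.36), led by the elongation factors Tsfm at -0.73 ± 0.02 and Tufm at -0.56 ± 0.01. Of 16 mitochondrial tRNA synthetases, 2 were lower and 0 higher (median -0.23), namely Sars2 at -0.69 ± 0.02 and Tars2 at -0.59 ± 0.02. Of 8 genes of mitochondrial transcription and RNA stability, 1 was lower, Lrpprc at -0.56 ± 0.01 (median -0.17), with Slirp, its partner, at -0.44 ± 0.01. Of 5 further ribosome proteins without the Mrp symbol, 1 was lower, Gadd45gip1 at -0.77 ± 0.04 (median -0.37), with Ptcd3 at -0.47 ± 0.02. These counts also depended on the scaling. After quantile normalization and after centring alike, 1 assembly factor, 1 translation factor, 1 tRNA synthetase, 0 transcription genes and 1 further ribosome protein were called lower.

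The nuclear genes of respiratory complex I, whose products assemble with subunits made by the mitochondrial ribosome, had a median of -0.41 over 34, with 6 called lower and 0 higher, led by Ndufa6 at -0.80 ± 0.01 and Ndufb5 at -0.77 ± 0.01. Cytosolic ribosomal protein genes had a median of -0.20 over 48, with 3 lower and 0 higher, led by Rps4l at -1.24 ± 0.04 and Rps27l at -0.82 ± 0.02. The median of the cytosolic list was that of all named genes, and those of the mitochondrial ribosome and complex I lay below it. Under either rescaling 3 complex I genes and 2 cytosolic ribosomal protein genes were called lower. No difference between lists was tested.

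Cell type markers moved in the same comparison. Of 8 oligodendrocyte markers, 7 were lower in cortex and 0 higher, with a median of -0.95 and a mean level per array of 10.6 to 11.4 in cortex against 11.9 to 12.4 in thalamus. Of 9 astrocyte markers, 7 were lower and 1 higher (median -0.70, mean level 10.8 to 11.3 against 11.4 to 11.7). Of 10 neuron markers, 3 were lower and 1 higher (median -0.33, mean level 12.2 to 12.5 against 12.6 to 12.8), and of 8 microglia markers, 0 were lower and 4 higher (median 0.40). Of 7 endothelial markers 2 were lower, and of 8 choroid plexus markers 4 were lower and 1 higher. Under either rescaling 7 oligodendrocyte, 5 astrocyte, 3 neuron, 1 endothelial and 2 choroid plexus markers were lower, and 4 microglia and 2 neuron markers higher. Their part in the difference of the members was not tested. Cortex and thalamus shared 1 hybridization date, with 14 and 20 arrays, and within it all 17 genes were again called lower, with a median over the 76 of -0.34. Date had been removed before deposit, so this result is no independent check of date.

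Members were next compared across mice within a region. The SD of a member gene across mice had a median of 0.114 (cortex), 0.111 (hippocampus), 0.102 (hypothalamus) and 0.098 (thalamus), and that of all named genes 0.182, 0.209, 0.179 and 0.168. All named genes include dim ones, and the SDs were not compared at matched level. Pairs of members correlated weakly and mostly positively. The median of Pearson's r over the 2850 pairs was 0.161 (cortex), 0.083 (hippocampus), 0.122 (hypothalamus) and 0.050 (thalamus), and r was above 0 in 86.6%, 71.3%, 78.7% and 65.2% of pairs. Over all pairs of named genes the median was 0.006, 0.001, 0.003 and 0.004. These correlations share the same arrays, and pairs of genes are not independent, so they are given as a description.

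Removing the 5 leading principal components of each region lowered the members' median r to 0.044, 0.047, 0.036 and 0.033 in the same order of regions. Without this removal, complex I genes had a median r of 0.210, 0.167, 0.205 and 0.095, and cytosolic ribosomal protein genes 0.168, 0.151, 0.109 and 0.098. With the 5 components removed these also fell, to 0.106, 0.083, 0.069 and 0.068 for complex I. For the cytosolic ribosome they fell to 0.111, 0.085, 0.077 and 0.089. Again without the removal, pairs of 1 large and 1 small subunit gene had a median r of 0.160, 0.091, 0.122 and 0.048. Pairs within the large subunit had 0.178, 0.076, 0.126 and 0.053.

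**Figure D3:**
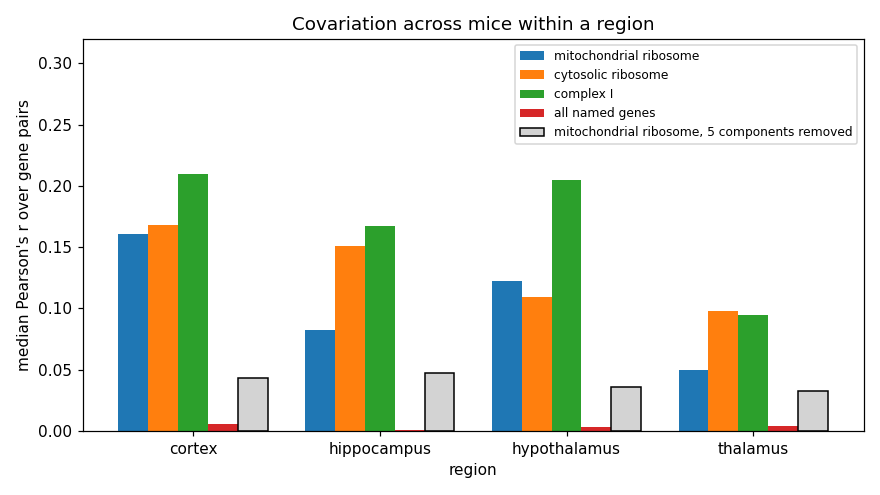
Median Pearson's r over pairs of genes across mice, by region, for the 76 mitochondrial ribosomal protein genes, 48 cytosolic ribosomal protein genes, 34 complex I genes and all named genes. The outlined bars give the mitochondrial ribosome with 5 principal components removed. The members' median falls from 0.161 in cortex to 0.050 in thalamus, and all named genes lie near 0.

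The mean of the members, each scaled to its own SD, was taken as a score per array. The mean of the large subunit genes followed that of the small subunit genes at r = 0.89, 0.86, 0.86 and 0.69 in the order cortex, hippocampus, hypothalamus, thalamus. The score followed that of complex I at 0.83, 0.70, 0.83 and 0.75, and that of the cytosolic ribosome at 0.52, 0.43, 0.74 and 0.56. Against the first principal component it stood at 0.71, 0.06, 0.64 and 0.44, and against RIN at -0.16, -0.22, -0.20 and -0.04. Against the oligodendrocyte markers it stood at 0.42 in cortex and between -0.05 and 0.08 in the other regions. Other marker lists reached similar sizes. In cortex the score stood at -0.43 against cortex markers, 0.40 against thalamus, 0.38 against striatum and -0.34 against neuron markers. Against astrocyte markers it stood at 0.05, -0.35, -0.34 and -0.03 in the same order of regions. In hippocampus it stood at 0.41 against hippocampus markers, and in thalamus at -0.34 against thalamus markers. The part of these in the covariation was not tested.

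**Figure D4:**
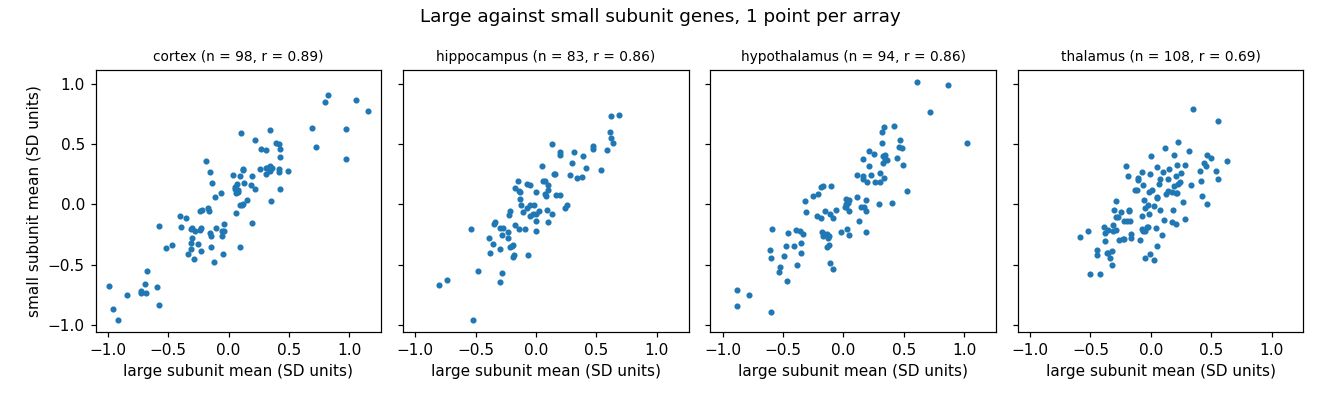
Mean of the 47 large subunit genes (x axis) against the mean of the 29 small subunit genes (y axis), each gene in units of its own SD, with 1 point per array and 1 panel per region. The points form a line in every panel, widest around it in thalamus (r = 0.69).

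Some members lay nearer the others than the rest did. In cortex the highest median r with other members belonged to Mrps22 (0.314), Mrpl23 (0.305), Mrpl11 (0.291), Mrpl20 (0.273) and Mrpl19 (0.268). In hippocampus it belonged to Mrpl41 (0.215), Mrpl11 (0.185), Mrps33 (0.181), Mrpl23 (0.180) and Mrps28 (0.174), and in hypothalamus to Mrpl22 (0.260), Mrpl41 (0.251), Mrpl11 (0.231), Mrpl46 (0.229) and Mrps26 (0.228). In thalamus it belonged to Mrps25 (0.148), Mrpl41 (0.140), Mrpl22 (0.127), Mrps34 (0.123) and Mrpl27 (0.122). Mrpl11, whose bacterial counterpart sits at the stalk where translation factors bind, was among the leading 5 in 3 regions but stood at rank 52 of 76 in thalamus, with a median r of 0.030. Mrpl41 was among the leading 5 in the 3 regions other than cortex, where it stood at rank 9 with 0.252.

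At the other end, the lowest median r in cortex belonged to Mrpl47 (-0.030), Mrpl55 (0.008) and Mrpl10 (0.020). In hippocampus it belonged to Mrps27 (-0.026), Mrpl49 (-0.019) and Mrpl44 (-0.014). In hypothalamus Mrpl9 (-0.071), Mrpl50 (-0.053) and Mrpl1 (-0.023) were lowest, and in thalamus Mrpl3 (-0.044), Mrpl10 (-0.018) and Mrpl1 (-0.017).

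The last comparison asked which member probe sets read high or low in all regions of the same mouse. For each probe set the levels of 2 regions were correlated over the mice with both, from 67 mice for hippocampus and hypothalamus to 91 for cortex and thalamus. Members called positive or negative at an adjusted p under 0.05 numbered 12 of 156 for cortex and hippocampus, where 5.74% of all probe sets were called, and 17 for cortex and hypothalamus (6.78% of all). They numbered 16 for cortex and thalamus (8.87%), 20 for hippocampus and hypothalamus (8.67%), 14 for hippocampus and thalamus (5.93%) and 15 for hypothalamus and thalamus (8.14%). In all 6 pairs, 8 member probe sets of 6 genes were called, where 3.29% of all probe sets were. No pair was called for 119 of the 156. The share of all probe sets called in no pair was not counted, so this count cannot be read as a trait of the members.

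Mrpl55, a large subunit protein found in animals and not in bacteria, had the highest median r. Its level ran from 8.25 to 9.25 (median 8.80) in cortex, from 9.01 to 9.84 in hippocampus (median 9.46), from 9.33 to 10.1 in hypothalamus (median 9.76) and from 8.45 to 9.40 in thalamus (median 9.01). The same mice were high or low in each region, with Pearson's r of 0.680 to 0.795 over the 6 pairs (median 0.739) and a median Spearman's rho of 0.726. With the 2 mice farthest from the median left out, r ran from 0.646 to 0.787.

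Mrpl47 was read by probe set 1443915_at, which ran from 4.73 to 6.71 in cortex (median 5.68) and from 4.79 to 6.63 in thalamus (median 5.93). Its r ran from 0.628 to 0.770 (median 0.700). The other 2 probe sets of Mrpl47 had a median r of 0.254 and -0.068 and were not called in all pairs. Mrpl3, the counterpart of bacterial L3, was likewise carried by 1 probe set, 1431006_at, with a median r of 0.677 (0.553 to 0.810), while its other 3 had medians between -0.007 and 0.250.

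Mrpl9 differed in that all 3 of its probe sets were called in all pairs, with a median r of 0.627, 0.593 and 0.568. Among small subunit genes, Mrps12, the counterpart of the bacterial decoding-site protein S12, ran from 9.67 to 10.3 in cortex and from 9.87 to 10.6 in thalamus, with a median r of 0.692 (0.631 to 0.804). Mrps2, by probe set 1420846_at, had a median r of 0.499 (0.461 to 0.644), and its other probe set a median of 0.056. Over the 8 probe sets and 6 pairs, which gave 48 tests, the largest permutation p was 0.00027 for r after Benjamini-Hochberg adjustment over the 48, with 1e-05 the smallest p that the 100000 permutations can give. Since these probe sets were named for being called in all pairs, that p is no independent support. In the mean over regions, the largest gap between neighbouring mice was at most 0.336 SD, with the outermost mice at each end left out. A small gap cannot exclude clusters that overlap.

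**Figure D5:**
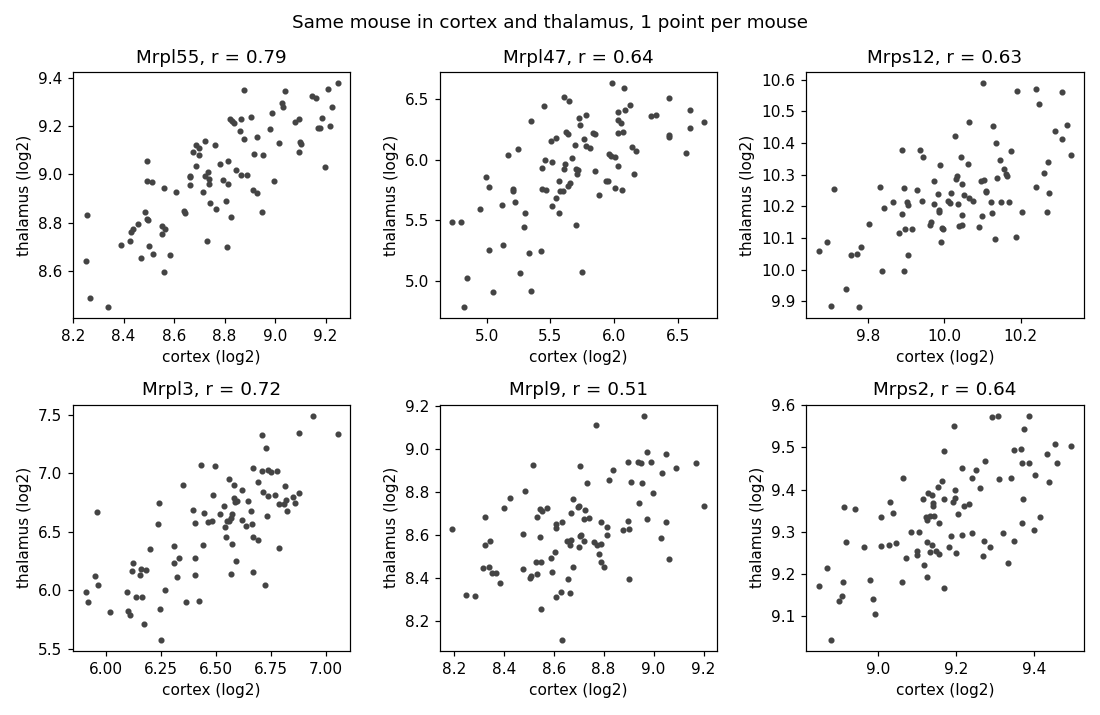
Log2 level in cortex (x axis) against thalamus (y axis) of the same mouse, 1 point per mouse, for 1 probe set of each of the 6 genes called in all pairs. Axes do not start at 0 and differ between panels. Pearson's r is highest for Mrpl55 and lowest for the plotted probe set of Mrpl9. Over all probe sets of Mrpl9, r between cortex and thalamus ran from 0.505 to 0.651. No cluster stands apart by eye, though clusters that overlap could not be seen.

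The genes that covaried most with these probe sets, in either direction, by the size of the median r over the 4 regions, lay mostly on the same chromosome. Among the leading 20 genes of each probe set, 20 were on the chromosome of the member for Mrpl55, Mrpl47, Mrps12, Mrpl3 and Mrps2, and 19 for each probe set of Mrpl9. Those chromosomes held between 5.02% and 7.93% of named genes. Some of the 20 ran opposite to the member: r was below 0 for 11 with Mrps2, 5 each with Mrpl47 and Mrps12, 3 with Mrpl55, 2 with Mrpl3 and 3 or 4 with the probe sets of Mrpl9. Examples were Gnb4 with Mrpl47 (median r -0.729), Gm38983 with Mrps12 (-0.715) and Cuedc1 with Mrpl55 (-0.681). For Mrpl55 the leading gene was 2610507I01Rik (median r 0.795), with no measured gene between them, followed by Ndel1 (0.693). For Mrpl3 it was Atp2c1 (0.796), for Mrpl47 Cetn4 (0.760), for Mrps12 Alkbh6 (0.757), for Mrpl9 by 1437749_s_at Zfp697 (0.681) and for Mrps2 Trub2. In an F2 cross, genes on a chromosome are inherited in large shared blocks. The part of this in the covariation was not tested. Overlap of probes with sequence variants between the strains could not be looked up. A difference in probe binding between alleles therefore cannot be told apart from a difference in RNA level.

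A further probe set had a wide spread. Mrps23 by 1459806_x_at had an SD of 0.881 in hippocampus and 0.857 in hypothalamus, the largest of any member there. Its SD was 0.340 in cortex and 0.307 in thalamus, where the median over member probe sets was 0.141 and 0.118. Its r was 0.756 between hippocampus and hypothalamus and 0.158 between cortex and hypothalamus. The scale of those 2 regions was not the usual one, so the size of the spread cannot be set against cortex and thalamus.

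Members were last set against 17 traits, 10 of sleep and 7 of behaviour, in each region. None of the 10608 member tests was called by limma after adjustment over all probe sets, and 640 (6.03%) had an unadjusted p under 0.05. Over all probe sets and the 68 fits, 0.000718% of tests were called. The smallest adjusted p belonged to Mrpl55 in hypothalamus against baseline REM sleep amount (adjusted p = 0.154, -0.06 ± 0.02 log2 per SD of the trait, 89 mice). In thalamus it belonged to Mrpl40 against baseline wake bout duration (adjusted p = 0.342), in hippocampus to Mrpl58, a peptide release factor of the ribosome, against the same trait (adjusted p = 0.370), and in cortex to Mrpl41 against REM sleep after restraint (adjusted p = 0.564). With at least 38 mice in a fit, no member was called with a trait, like nearly all other probe sets. The share of all probe sets with an unadjusted p under 0.05 was not counted.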

How the data were processed

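The authors deposited log2 values. The submitters' processing notes name affy and RMA (versions: not given in the sources used here). Judged by the values, each region had been normalised apart. The deposited trait values are of other units, 1 scale per trait, transformed by the authors. Probe sets were named through the platform annotation, with symbols updated by gene ID from GRCm38.p6, which matched all 156 members. For 1 probe set per gene, the brightest on average in cortex and thalamus was taken.

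Regions and traits were tested with limma 3.58.1 in R 4.3.3 over all 45037 probe sets, called at an adjusted p under 0.05 and, for regions, a log2 difference of at least 0.5. Between regions, r over mice was tested against 0 for every probe set and adjusted likewise. Missing values were left missing in limma and set to the probe set's mean in correlations. Fits were tested on simulated data. Members and lists were chosen with earlier results of these data known. Named genes were the 8 largest called differences each way, members called in all 6 pairs, the 5 highest and 3 lowest in median r per region, the smallest adjusted p with a trait per region, and, for each other list, its 2 largest differences. The number of arrays limits the precision. The main cortex against thalamus fit was unpaired. Correlations between regions and the checks with a replicate block or within-mouse differences paired regions by the animal number in the labels. The estimated correlation within a mouse was 0.053.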

Additional observations from a re-analysis of the deposited data

How the results depend on the processing

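The count of 17 members lower in cortex fell to 4 with quantile normalization and to 4 with centring on the array median (12.2% and 12% of named genes), and the median difference moved from -0.33 to -0.18 under either. All 4 were among the 17. With no minimum difference 71 members were lower and 4 higher (66.6% and 22% of named genes), with a minimum of 1 the counts were 0 and 0 (4.31% and 2.34% of named genes), and with all 156 probe sets in place of 1 per gene they were 26 and 4, with a median of -0.27. With the animal as a replicate block (samples of 1 mouse share its number in the labels) 17 members were lower and 1 higher, and the block changed the call of 0 of the 156 member probe sets at the minimum difference of 0.5. The block was fitted for cortex against thalamus alone. The remaining settings (all 4 regions in the fit, date, shared date, dim probe sets left out, RIN, within-mouse differences) gave 17 or 18 lower and 1 higher. With dim probe sets left out, the median of named genes moved from -0.20 to -0.24, while that of the members stayed at -0.33. The within-mouse differences were added after seeing the data. With 5 principal components removed the median r fell to 0.044 (cortex), 0.047 (hippocampus), 0.036 (hypothalamus) and 0.033 (thalamus), and 7 of the 8 probe sets stayed called in all 6 pairs, without Mrpl9 by 1427297_at. The cause was not tested. Other settings kept 8 probe sets. No trait call arose with RIN as a term or with ranks. Cohort and date had been removed before deposit, so p-values may be somewhat too small and the settings with date are no independent check of it.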
